A study of Rattus norvegicus with 6 samples.

Results

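The 8 genes described here encode the subunits of the condensins, Smc2, Smc4, Ncapd2, Ncapg, Ncaph, Ncapd3, Ncapg2 and Ncaph2. They were taken by exact gene symbol from RNA sequencing counts, and all 8 were found among the 31011 genes of the files. All 8 also passed the filter on low counts, which left 12724 genes to test. The cells came from the heart muscle of rat embryos, are called NRVM in the labels, and had received a control siRNA (3 libraries) or the siRNA si-eIF3m against eIF3m, a subunit of the translation initiation factor eIF3 (3 libraries). Both groups had been kept in DMEM with fetal bovine serum. The labels give no age, no time after siRNA and no other treatment that can be tied to these libraries, and they do not say that replicates were separate cultures, so the p-values here may reflect technical spread alone. The protocol text also lists a medium with dexamethasone, isobutylmethylxanthine and insulin, without saying whether these cells received it.

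Condensins are ring-shaped ATPases that fold chromatin into loops and give mitotic chromosomes their compact, rod-like shape. Smc2 and Smc4 are long coiled-coil ATPases that pair in both complexes. Condensin I adds the kleisin Ncaph, which closes the ring, and the HEAT-repeat proteins Ncapd2 and Ncapg. Condensin II adds their relatives Ncaph2, Ncapd3 and Ncapg2. Condensin II is nuclear through the cell cycle and starts compaction in prophase, whereas condensin I is largely cytoplasmic until the nuclear envelope breaks down. Mature heart muscle cells rarely divide, but the cells here came from embryos, and their controls already held transcripts of mitotic genes (given below).

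The windows around the start sites of these genes were searched for motifs of cell cycle promoters. Each window holds 250 bases before and 50 bases after the start site, as RefSeq gives it for build GRCr8; the counts were made on build rn6. All 8 genes had an entry. The motifs, searched on both strands, were the cell cycle genes homology region or CHR (TTTGAA), bound by the MuvB complexes, the CCAAT box (CCAAT), bound by NF-Y, and the E2F words TTCCCGC, also TTGGCGC, also TTCGCGC and also TTGCCGC. Shown are Ncapg and Ncapd2, the members with the largest changes, Smc4, the most counted one, and Ncaph2, one of those that did not pass the test. Capitals mark the motif matches on either strand, and none of the 17 matches in the 8 windows overlapped another.

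Ncapg, chr14:69645396-69645695, minus strand: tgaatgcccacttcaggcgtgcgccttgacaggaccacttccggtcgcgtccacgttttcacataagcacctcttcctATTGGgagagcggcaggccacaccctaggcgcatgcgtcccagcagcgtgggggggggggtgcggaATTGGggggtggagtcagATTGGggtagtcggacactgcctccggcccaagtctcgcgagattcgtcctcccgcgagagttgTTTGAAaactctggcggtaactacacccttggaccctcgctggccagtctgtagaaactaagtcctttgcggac

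Ncapd2, chr4:159677889-159678188, minus strand: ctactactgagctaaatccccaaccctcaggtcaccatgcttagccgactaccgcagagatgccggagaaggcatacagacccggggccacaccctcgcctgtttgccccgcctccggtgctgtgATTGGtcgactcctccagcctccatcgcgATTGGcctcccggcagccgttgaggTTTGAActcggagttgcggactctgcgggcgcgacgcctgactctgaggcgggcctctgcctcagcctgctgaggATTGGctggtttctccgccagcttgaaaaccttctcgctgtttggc

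Smc4, chr2:155550012-155550311, plus strand: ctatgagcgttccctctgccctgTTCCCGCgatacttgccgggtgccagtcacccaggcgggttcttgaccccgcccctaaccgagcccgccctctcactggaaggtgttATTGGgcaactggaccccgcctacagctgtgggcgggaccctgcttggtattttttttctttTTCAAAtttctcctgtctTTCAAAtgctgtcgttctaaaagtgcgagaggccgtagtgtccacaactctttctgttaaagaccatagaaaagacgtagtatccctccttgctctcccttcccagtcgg

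Ncaph2, chr7:122302329-122302628, plus strand: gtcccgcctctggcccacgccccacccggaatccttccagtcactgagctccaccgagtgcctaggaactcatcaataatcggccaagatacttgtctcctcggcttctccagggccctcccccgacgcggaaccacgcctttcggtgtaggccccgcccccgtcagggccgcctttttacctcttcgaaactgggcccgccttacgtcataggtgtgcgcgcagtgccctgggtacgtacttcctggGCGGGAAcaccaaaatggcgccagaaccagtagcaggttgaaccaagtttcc

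A CHR was found in 4 of 8 windows, those of Smc2, Smc4, Ncapd2 and Ncapg, and the same 4 held a CCAAT box. Among 33465 promoter windows of the same length, 18.3% held a CHR, 37.5% a CCAAT box and 7.41% both. In Ncapg the CHR began 24 bases before the start site, with CCAAT boxes at -172, -106 and -88. The CHR of Ncapd2 lay at -71, between CCAAT boxes at -96 and 5 and with a further one at -125. Smc4 had a CHR at -78 and at -60, and Smc2 had 1 at -103. E2F words were present in 3 of 8 windows, those of Smc4, Ncaph and Ncaph2, against 9.52% of all windows. None of these words occurred in the windows of Ncapd3 and Ncapg2, which says only that the letters are not in those bases.

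Total counts ran from 7437285 to 8603602 in the control libraries and from 2156186 to 10061575 in the eIF3m libraries, of which replicate 2 was the smallest. Levels are in CPM (counts over the total of tested genes, after TMM scaling) and are listed in the order of replicates 1, 2 and 3. Controls had 138, 136 and 141 CPM of Eif3m itself, and the eIF3m libraries had 92.0, 84.1 and 87.6 CPM, a log2 fold change of -0.64 ± 0.05 SE (edgeR adjusted p = 1.41e-07), so a good part of the transcript was still present. Of 20 cardiomyocyte markers 9 reached 1 CPM in at least 3 libraries; Myl3 and Tbx20 had no count in any library, and Myh6, Myh7, Myl2, Tnni3 and Nppb stayed at or below 1.33 CPM. Their summed level, mostly Tnnt2 and Tnnc1, was 602 to 615 CPM in controls and 271 to 291 CPM with eIF3m siRNA. Fibroblast markers, of which 8 of 10 reached 1 CPM in at least 3 libraries, summed to 15801 to 16300 CPM and 17010 to 17769 CPM. That sum was mostly Col1a1, which rose by 10.1%. Col3a1 rose by 20.7% and Postn by 27.1%, whereas Thy1 fell by 31.7% and Ddr2 by 25.3%, and Col1a2 did not pass. Skeletal myoblast markers, with 7 of 10 at that level, summed to 303 to 316 CPM and 233 to 261 CPM, or without the abundant Cdh15 to 84.5 to 90.1 CPM and 42.8 to 49.1 CPM. One library stood apart: in eIF3m replicate 1 erythroid markers summed to 3207 CPM (17.6 to 113 CPM in the other libraries), endothelial markers to 234 CPM (65.1 to 111) and leukocyte markers to 66.8 CPM (25.4 to 32.9). In the other libraries the endothelial sum was mostly Flt1, which fell by 46.9%, and the leukocyte sum mostly Cd14, which fell by 28.6%. The endothelial marker Pecam1 was at most 0.246 CPM in those libraries, against 11.1 CPM in eIF3m replicate 1. The changes of single condensin subunits are therefore given with and without that library.

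With eIF3m siRNA 6 of the 8 condensin transcripts rose, 0 fell and 2 did not pass the test (edgeR quasi-likelihood test, Benjamini-Hochberg adjusted p under 0.05 over all genes tested). In the background 17.4% of the tested genes rose and 21.2% fell, so 45.1% of the called genes were risers. That split depends on the scaling, with 58.6% risers under upper-quartile scaling and 71.2% with no scaling factors. Every one of the 8 had its 3 eIF3m libraries above its 3 control libraries in CPM, an ordering found for 23.3% of tested genes. The median log2 fold change of the 8 was 0.60, from 0.18 for Ncapd3 to 1.25 for Ncapg, against a median of 0.01 over all genes tested. Without eIF3m replicate 1 the count was again 6 of 8. In bulk RNA, more dividing cells and more of these transcripts per cell cannot be told apart.

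**Figure D1:**
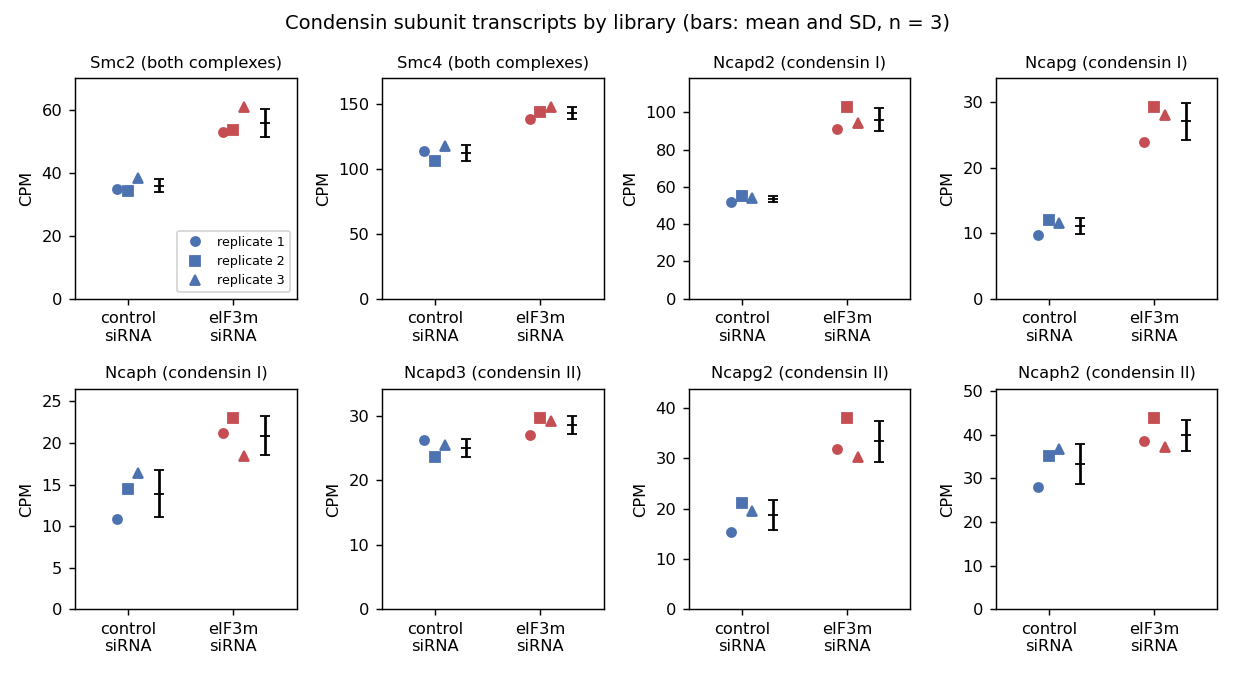
CPM (vertical axis, from 0) of the 8 condensin transcripts in each control siRNA and eIF3m siRNA library; marker shapes give the replicate number, and bars the mean and SD of 3 libraries. The groups lie far apart for Ncapg and Ncapd2 and nearly touch for Ncapd3 and Ncaph2.

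Among the ATPase subunits, Smc2 was counted at 35.0, 34.4 and 38.3 CPM in the controls. After eIF3m siRNA it was at 53.1, 53.6 and 61.0 CPM. The groups were clearly apart, and the mean went from 35.9 ± 2.10 to 55.9 ± 4.40 CPM (SD, n = 3), a log2 fold change of 0.65 ± 0.08 SE (edgeR adjusted p = 1.08e-05). Smc4, its partner in every condensin ring, gave 114, 106 and 118 CPM in controls and 139, 144 and 148 CPM with eIF3m siRNA. It rose by less, 0.35 ± 0.05 SE on the log2 scale (edgeR adjusted p = 1.27e-04), or 27.3%. The log2 ratio of Smc2 to Smc4, set to a control mean of 0, was 0.27, 0.22 and 0.37 in the eIF3m libraries and between -0.05 and 0.03 in the controls, so the groups did not overlap in this untested ratio. Without eIF3m replicate 1 the changes were 0.71 for Smc2 and 0.39 for Smc4.

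All 3 subunits that belong to condensin I rose. Ncapg, the HEAT-repeat subunit that helps condensin I to hold DNA, showed the largest change of the 8. Controls held 9.79, 12.0 and 11.6 CPM, and the eIF3m libraries 23.9, 29.2 and 28.0 CPM. Every eIF3m library was well above every control, and the mean went from 11.1 ± 1.19 to 27.0 ± 2.79 CPM, which is 2.37-fold by the fit (log2 fold change 1.25 ± 0.13 SE, 95% interval 0.97 to 1.52, edgeR adjusted p = 1.93e-06). Its promoter window carries the CHR closest to the start site among the members shown above. Smc4, with the next closest at -60, rose by 0.35, and Ncapg2 and Ncaph rose with no CHR in their windows. A link between these motifs and the changes was not tested. Ncapd2, the other HEAT-repeat subunit of condensin I, was at 52.1, 55.3 and 53.8 CPM in controls and at 91.0, 103 and 94.3 CPM with eIF3m siRNA. It had the lowest p of the 8 and rose by 0.82 ± 0.06 SE on the log2 scale, or 76.0% (edgeR adjusted p = 3.26e-08). Ncaph, the kleisin that bridges the ATPase heads, was scarcer and more variable, at 10.9, 14.5 and 16.4 CPM in controls and 21.2, 23.0 and 18.4 CPM with eIF3m siRNA. The gap between the highest control and the lowest eIF3m library was small, and the change was 0.55 ± 0.15 SE (edgeR adjusted p = 0.00942). The smallest count of any member was Ncaph in eIF3m replicate 2, where 52 counts gave 23.0 CPM with an exact 95% Poisson interval of 17.2 to 30.2 CPM, which covers counting error only. Without eIF3m replicate 1 the changes were 1.35 for Ncapg, 0.86 for Ncapd2 and 0.51 for Ncaph (edgeR adjusted p = 0.0315 for Ncaph). The Ncaph change was lowest without control replicate 1 (0.40, adjusted p = 0.0490), the control library with its lowest level.

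Condensin II was uneven. Ncapg2, a HEAT-repeat subunit and the counterpart of Ncapg, was at 15.5, 21.2 and 19.5 CPM in controls and at 31.8, 38.1 and 30.3 CPM with eIF3m siRNA. These groups were apart, and Ncapg2 rose by 0.79 ± 0.12 SE on the log2 scale, or 72.4% (edgeR adjusted p = 1.17e-04). Ncapd3, the HEAT-repeat counterpart of Ncapd2, was at 26.2, 23.5 and 25.4 CPM in controls and at 27.1, 29.7 and 29.1 CPM with eIF3m siRNA. The highest control and the lowest eIF3m library were nearly level, and the log2 fold change was 0.18 ± 0.10 SE (95% interval -0.03 to 0.38, edgeR adjusted p = 0.158). Ncaph2, the kleisin of condensin II, was at 27.9, 35.2 and 36.6 CPM in controls and at 38.4, 43.8 and 37.2 CPM with eIF3m siRNA. Its low control value was that of replicate 1, and the change was 0.22 ± 0.10 SE (95% interval 0.00179 to 0.44, edgeR adjusted p = 0.104). Without that control library it was 0.11 (adjusted p = 0.409). A change above 0.44 on the log2 scale lies outside both intervals, so for Ncapd3 and Ncaph2 a rise as large as that of Ncapd2 was not seen at this depth, while smaller rises fall within them. Without eIF3m replicate 1 the values were 0.81 for Ncapg2 and 0.23 for Ncapd3 and for Ncaph2, and the last pair again did not pass. With no scaling factors, which moved the median of all genes from 0.01 to 0.16, Ncapd3 (0.32, adjusted p = 0.0125) and Ncaph2 (0.37, adjusted p = 0.00896) passed, and Ncaph2 also with upper-quartile scaling (0.29, adjusted p = 0.0351).

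**Figure D2:**
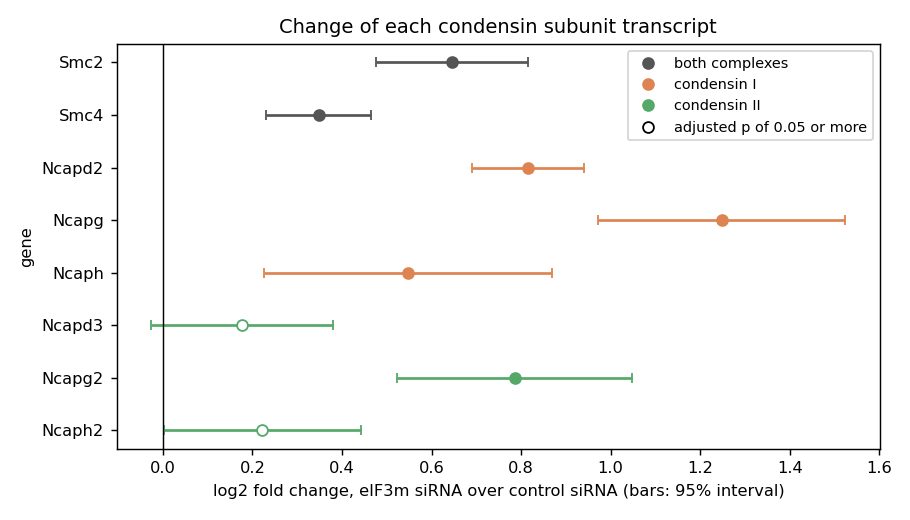
Log2 fold change of each condensin transcript, eIF3m siRNA over control siRNA (horizontal axis), with its 95% interval from the edgeR fit; colours give the complex and open points did not pass. Ncapg lies highest at 1.25, and the intervals of Ncapd3 and Ncaph2 lie below that of Ncapd2.

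Relative to condensin II, transcripts of condensin I were higher in every eIF3m library than in every control. Summed over Ncapd2, Ncapg and Ncaph, controls held 72.8, 81.8 and 81.8 CPM and eIF3m libraries 136, 155 and 141 CPM. For Ncapd3, Ncapg2 and Ncaph2 the sums were 69.6, 80.0 and 81.4 CPM in controls and 97.3, 112 and 96.6 CPM with eIF3m siRNA. Both sums were higher in every eIF3m library, the first 1.83-fold and the second 1.32-fold by their means. The log2 ratio of the sums, set to a control mean of 0, was 0.03, -0.0019 and -0.03 in controls and 0.45, 0.44 and 0.51 with eIF3m siRNA, a mean shift of 0.47 ± 0.04 (SD, n = 3), and of 0.47 without eIF3m replicate 1 as well. Because the files hold no transcript lengths, only this shift can be read, not which complex is the more abundant.

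The same held for each subunit of condensin I against its own counterpart. The log2 ratio of Ncapd2 to Ncapd3 stood 0.65, 0.69 and 0.59 above a control mean of 0 in the eIF3m libraries (controls -0.11 to 0.13). For Ncapg to Ncapg2 the shifts were 0.33, 0.36 and 0.63 (controls -0.08 to 0.08), and for Ncaph to Ncaph2 they were 0.41, 0.34 and 0.25 (controls -0.09 to 0.11). In none of these pairs did the groups overlap. The ratios were not tested, since the members were chosen with earlier results of these data known. By contrast, the 6 other subunits together against Smc2 and Smc4 gave 0.22, 0.37 and 0.12 with eIF3m siRNA against -0.13 to 0.14 in controls, and these groups overlapped.

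**Figure D3:**
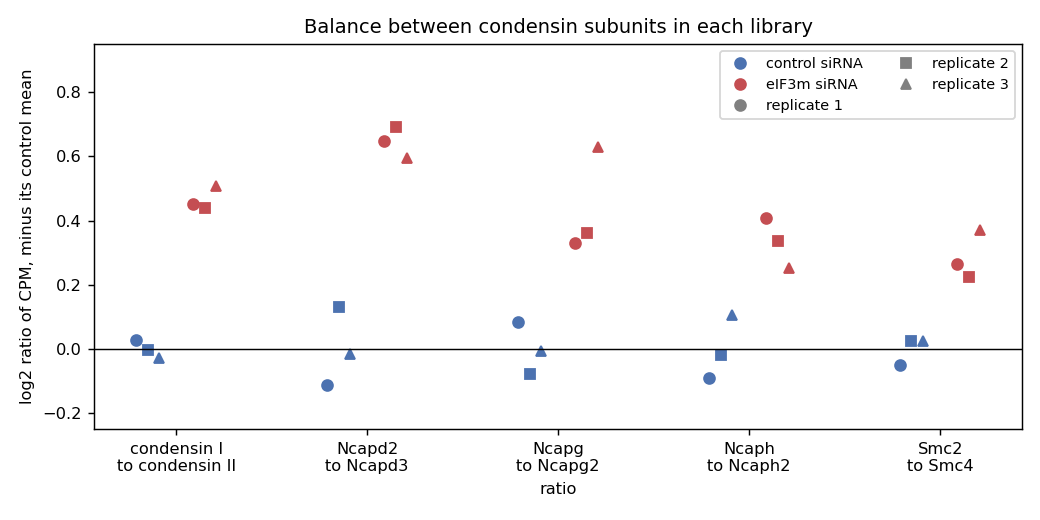
Log2 ratio of CPM between condensin subunits in each library, minus its control mean (vertical axis), for the complexes and for each related pair; shapes give the replicate. All eIF3m siRNA points lie above all control siRNA points in each ratio, with 0.44 to 0.51 for condensin I to condensin II.

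The other chromosome-folding complexes built on SMC proteins had medians near that of all genes. In both of their lists, though, the share of genes that rose was above the 17.4% of all genes tested. Cohesin holds sister chromatids together and forms loops between divisions, and of 19 genes for it and its regulators 7 rose, 2 fell and 10 did not pass, with a median log2 fold change of 0.04. The rises with the lowest p were these. Sgo1, shugoshin, which protects centromeric cohesin, rose by 1.28 ± 0.13 SE on the log2 scale (edgeR adjusted p = 2.08e-06), Espl1, the protease separase that opens cohesin at anaphase, by 1.11 ± 0.09, and Pttg1, its inhibitor securin, by 0.88 ± 0.12. Cohesin's own kleisin Rad21 rose by 0.32 ± 0.05 SE, from 129 ± 1.93 to 161 ± 8.15 CPM. The other risers of this list were Cdca5 (0.93), Sgo2 (0.78) and Esco2 (0.70). Of the cohesin ATPases, Smc1a fell by 0.26 ± 0.06 SE (edgeR adjusted p = 0.00158), and Smc3 was at 0.10 and did not pass. Mau2, a part of the cohesin loader, fell by 0.26 ± 0.06 SE (edgeR adjusted p = 0.00219). With no scaling factors neither Smc1a (-0.12, adjusted p = 0.0966) nor Mau2 (-0.11, adjusted p = 0.128) passed.

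In the Smc5/6 complex, which acts in DNA repair and replication, 3 of 7 genes rose, 1 fell and 3 did not pass, with a median of 0.07. Eid3 (0.29), Nsmce4a (0.29) and the ATPase Smc5 (0.27) rose, and Ndnl2, also named Nsmce3, fell by 0.36. These calls were weak: only Eid3 kept its call in every alternative run. Nsmce4a did not pass without eIF3m replicate 1 (0.21, adjusted p = 0.0724). Smc5 did not pass without control replicate 2 (0.25), control replicate 3 (0.24) or eIF3m replicate 3 (0.17), nor with thinned libraries. Ndnl2 did not pass without control replicate 2 (-0.27) or eIF3m replicate 1 (-0.33), with thinned libraries, or with no scaling factors (-0.21).

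In the list of condensin kinases, phosphatases and regulators 13 of 21 genes rose, 1 fell and 7 did not pass, with a median of 0.51. Cdk1, whose phosphorylation of condensin subunits starts compaction, rose from 58.7 ± 1.76 to 88.7 ± 2.36 CPM (log2 fold change 0.60 ± 0.05 SE, edgeR adjusted p = 3.72e-07). Its cyclin Ccna2 rose by 0.98 ± 0.10 SE. Plk1, a polo kinase that phosphorylates condensin II, rose by 0.48 ± 0.06 SE, and Ttk, a checkpoint kinase that phosphorylates Ncaph2, by 0.97 ± 0.12. The kinase of the chromosomal passenger complex, Aurkb, which phosphorylates Ncaph, rose by 0.96 ± 0.13 SE, along with its partners Incenp (0.75 ± 0.05) and Birc5 (1.06 ± 0.11). Mcph1, microcephalin, which restrains condensin II, rose by 0.57 ± 0.17 SE (edgeR adjusted p = 0.0154), a call lost without control replicate 2 (0.55, adjusted p = 0.0560) and with thinned libraries. Cdc14a, a phosphatase that acts on Cdk sites, was the member that fell (-0.46 ± 0.09 SE, edgeR adjusted p = 0.00134), a call lost with thinned libraries (-0.32, adjusted p = 0.0997).

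Of 10 genes for the mitotic chromosome axis and surface 7 rose, 1 fell and 2 did not pass, with a median of 0.45. Top2a, topoisomerase II alpha, which shares the chromosome axis with condensin, rose from 50.6 ± 3.08 to 90.8 ± 8.77 CPM (log2 fold change 0.82 ± 0.08 SE, edgeR adjusted p = 4.97e-07), a change of the size of that of Ncapd2. Mki67, which coats mitotic chromosomes, was at 157 ± 1.12 CPM in controls and rose by 0.81 ± 0.05 SE. The chromosome-bound kinesin Kif22 rose by 0.68 ± 0.07 and Hmgb2 by 0.60 ± 0.06. Kif4a, a kinesin that binds condensin I, was higher by 0.30 ± 0.11 SE (edgeR adjusted p = 0.0416). Its call was not firm, being lost without control replicate 2 (0.28), control replicate 3 (0.25), eIF3m replicate 2 (0.29) or eIF3m replicate 3 (0.24), with thinned libraries, no filter, DESeq2, and a replicate block (0.30, adjusted p = 0.0689). Kmt5a, the enzyme that places the histone H4 lysine methyl mark read by condensin II, fell from 310.1 ± 11.7 to 241 ± 9.20 CPM (-0.37 ± 0.05 SE, edgeR adjusted p = 2.83e-05).

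Kinetochore and centromere genes, which share the mitotic timing of condensin, had a median near that of condensin: 28 of 30 rose, 0 fell and 2 did not pass, with a median of 0.67. Bub1b, a checkpoint kinase (0.70 ± 0.08 SE), Cenpa, the centromeric histone (0.88 ± 0.10), Cenpk (0.77 ± 0.09) and Cenpf (0.59 ± 0.07) had the lowest p in that list. In the MCM helicase and replication list 20 of 25 rose, 0 fell and 5 did not pass, with a median of 0.43, and with thinned libraries 11 rose. Tk1 (0.79 ± 0.10 SE), Rfc4 (0.80 ± 0.11), Rrm2 (0.60 ± 0.07) and Pole (0.56 ± 0.08) had the lowest p there, and Mcm10 had the largest change (0.88). The log2 ratio of the summed condensin CPM to the summed kinetochore list was 0.10, 0.23 and 0.09 in the eIF3m libraries against -0.09 to 0.14 in controls, which overlapped. Against the replication list it was 0.15, 0.25 and 0.19 against -0.09 to 0.13, which did not overlap but came close.

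**Figure D4:**
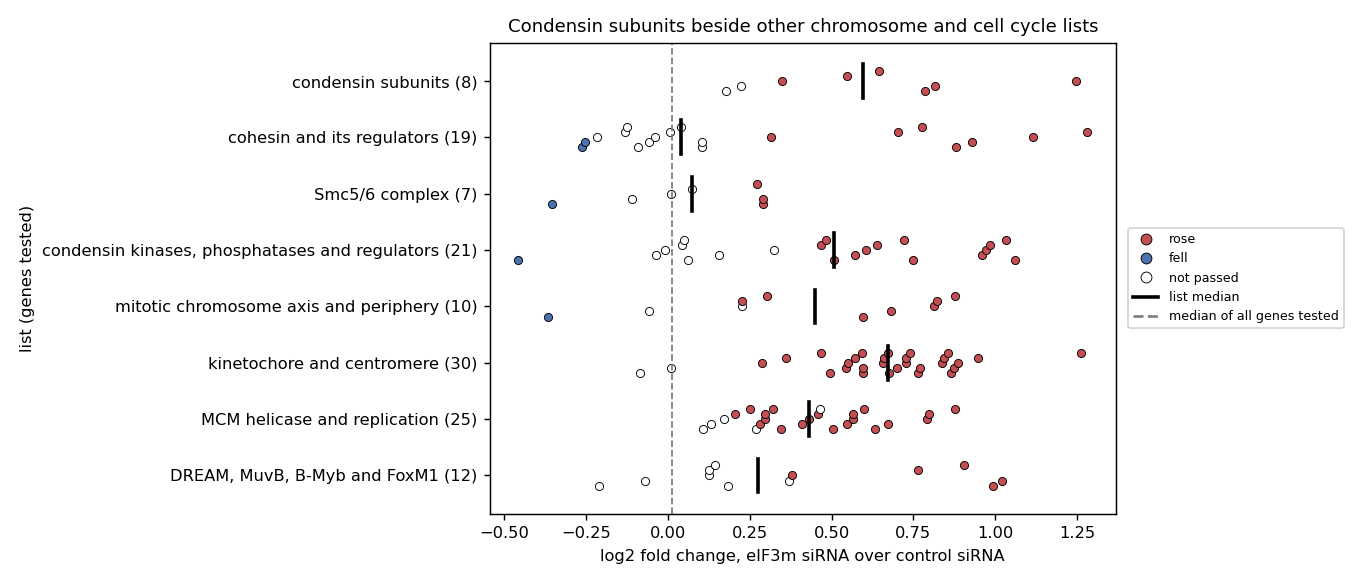
Log2 fold change, eIF3m siRNA over control siRNA (horizontal axis), of each tested gene in 8 lists; red points rose, blue fell, open points did not pass, black bars give list medians and the dashed line the median of all genes tested. Condensin subunits (median 0.60) lie near kinetochore genes (0.67) and to the right of cohesin (0.04) and Smc5/6 genes (0.07).

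The list of DREAM and MuvB genes holds subunits and partners of complexes that bind CHR and E2F motifs, and no NF-Y gene. Of 12 genes for the DREAM and MuvB complexes and their partners, 5 rose, 0 fell and 7 did not pass, with a median of 0.28. Mybl2, the B-Myb factor that joins MuvB to activate mitotic genes, rose by 0.90 ± 0.08 SE (edgeR adjusted p = 2.59e-07), and Foxm1, which acts with it in late cell cycle, by 0.76 ± 0.12. Tfdp2, an E2F partner, rose by 0.99 ± 0.15 SE. The MuvB subunit Lin9 rose by 1.02 ± 0.22 SE from a low 4.18 ± 0.398 CPM, a call lost with thinned libraries. Lin54, the MuvB subunit that touches the CHR, rose by 0.38 ± 0.12 SE (edgeR adjusted p = 0.0212), a call lost without control replicate 1 (0.33), control replicate 2 (0.37) or eIF3m replicate 3 (0.34) and also with DESeq2, with no filter and with thinned libraries. With no scaling factors 10 of the 12 rose, and with upper-quartile scaling 8.

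Outside the members, the genes whose pattern over the 6 libraries was nearest to the mean condensin profile were Slc4a7, Hmgb2, Cenpf, Ckap2 and Csnk1e. Likeness was the root mean square difference of log2 CPM, centred on the control mean, and it ranged from 0.037 for Slc4a7 to 0.054 for Csnk1e among 9773 genes compared. Hmgb2 and Cenpf are chromosome and kinetochore proteins, Ckap2 is a spindle protein, Slc4a7 a sodium bicarbonate transporter and Csnk1e a casein kinase. All 5 rose, by 0.56 to 0.60 on the log2 scale, which follows from their choice by likeness to a profile that rose. The mean condensin profile itself lay at -0.12, 0.03 and 0.09 among controls and at 0.55, 0.71 and 0.60 among eIF3m libraries, so control replicate 1 was the lowest and eIF3m replicate 2, the shallowest library, the highest.

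**Figure D5:**
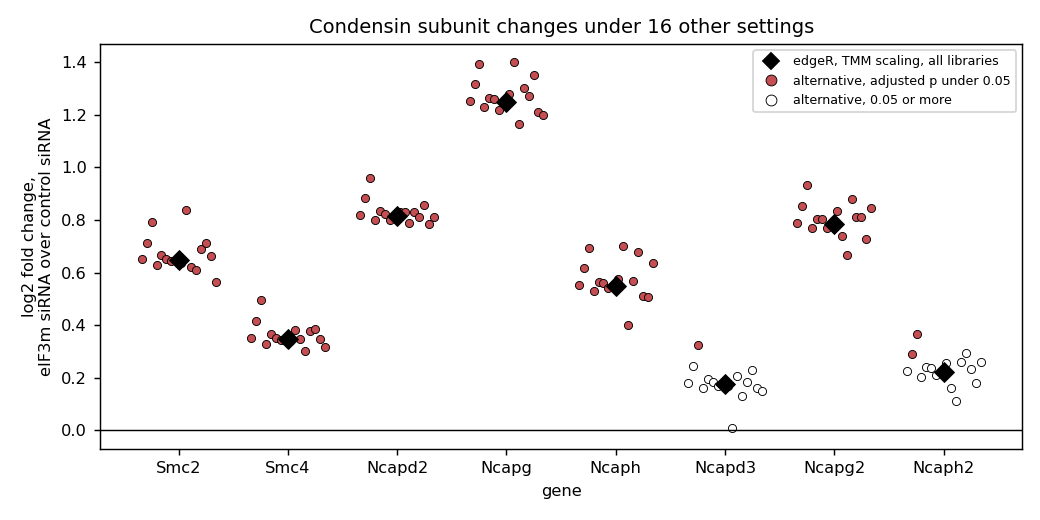
Log2 fold change of each condensin transcript (vertical axis) in the edgeR fit to all libraries (diamond) and under 16 other settings (circles, filled where the adjusted p was under 0.05). All points lie above 0; Ncapd3 and Ncaph2 are mostly open, and the other 6 genes are filled throughout.

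The summed cardiomyocyte and skeletal myoblast markers were lower in every eIF3m library than in every control. Among their tested genes, Nkx2-5, Gata4 and Myod1 did not pass (edgeR adjusted p = 0.866, 0.205 and 0.705), and the others fell. The summed fibroblast markers, mostly Col1a1, were higher in every eIF3m library. Col3a1 and Postn rose as well, although Thy1 and Ddr2 fell. Dcn, also a fibroblast marker, reached 55.5 CPM in eIF3m replicate 1 and at most 2.21 CPM in the other libraries. The part of these cell type markers in the condensin rise was not tested. The summed erythroid, endothelial and leukocyte markers were by far highest in eIF3m replicate 1. The erythroid sum was also raised in eIF3m replicate 2, at 113 CPM against 17.6 to 41.3 CPM in controls. Without eIF3m replicate 1 the changes of the 6 subunits that rose were as large or nearly so: Ncapg 1.35, Ncapd2 0.86, Ncapg2 0.81, Smc2 0.71, Ncaph 0.51 and Smc4 0.39.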

How the data were processed

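Per-gene counts of RNA sequencing reads were used as the authors deposited them, as whole numbers with no normalisation, 1 file per library. Per the submitters' processing notes the tools were Trimmomatic 0.40, HISAT2 2.2.1, featureCounts, DESeq2 and limma, with build rn6, in no stated role or order. Annotation, strand setting and treatment of multi-mapping reads: not given in the sources used. In each file 27 symbols had become calendar dates and were left out (0.203% to 0.216% of counts). Group and replicate came from the sample titles.

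Counts were fitted in R 4.3.3 with edgeR 4.0.16: filterByExpr (minimum count 10, minimum total 15), TMM scaling, quasi-likelihood F-test with no covariate, Benjamini-Hochberg adjustment over 12724 genes, two-sided threshold 0.05. SE is the log2 fold change divided by the square root of F. A floor of 3 counts is 0.287 to 1.33 CPM depending on the library and highest in the smallest one, and all members lay above it. The steps were run on simulated data in which few genes changed, as many up as down. Many more genes were called here, so that run cannot speak for the scaling in these data. Alternatives used DESeq2 1.42.0, limma 3.58.1, other scaling, filters and dispersion, thinned libraries, a replicate block and each library left out.

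The members, the lists and the rule for named genes were chosen with earlier results of these data known. The rule took Eif3m, all members, Cdk1, Plk1, Aurkb, Ttk, Mcph1, Top2a, Kif4a, Mki67, the up to 4 called genes of lowest p per list, called genes of a direction taken by 5 or fewer, and the 5 nearest profiles. Smc3, Cdca5, Sgo2, Esco2, Mcm10 and single marker genes were named after their values were seen. Lists are described by counts and medians with no set test.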

Additional observations from a re-analysis of the deposited data

How the results depend on the processing

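Over 16 alternatives, Smc2, Smc4, Ncapd2, Ncapg, Ncaph and Ncapg2 kept their direction and their call in all 16, and Ncapd3 and Ncaph2 kept their direction. The count of condensin subunits called was 6 in all but upper-quartile scaling (7) and no scaling factors (8). Ncapd3 passed in 1 of 16 and was lowest with thinned libraries (0.011, adjusted p = 0.973); Ncaph2 passed in 2 of 16. Of all genes, 4920 were called, 3767 with DESeq2 and 3121 with libraries thinned to the total of the smallest, which holds fewer counts by construction. Leaving out 1 library gave 4028 to 4754 genes, and a condensin I to condensin II shift of 0.45 to 0.48. With the replicate block 4755 genes and 6 condensin subunits were called; same-numbered libraries did not deviate together (correlations 0.030, -0.0054 and 0.0077 across genes), not every library correlated best with its own number, and the labels name no shared batch, so the numbers were not taken as pairs. Of 800 alternative values of single genes, 29 lost a call, 3 gained one and none changed sign with a call. The ratio per kilobase of coding length was not run, since no coding lengths were used here. The lowest member counts, 52 for Ncaph and 66 for Ncapg, were in eIF3m replicate 2, the shallowest library.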
